A study of Mus musculus with 24 samples.

Results

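Endothelial cells of mouse bone marrow and stroma of the same tissue, each cultured together with hematopoietic cells, were compared by RNA sequencing. The 6 libraries were taken by their titles from the 24 of the series: 3 of endothelium with HSPC (hematopoietic stem and progenitor cells) and 3 of stroma with HSPC. The series addresses the niche of hematopoietic stem cells at arterioles, and polyadenylated RNA was read as paired ends on an Illumina system. All 6 came from cells of C57BL/6J mice grown in vitro, and the labels name hematopoietic stem cells as the co-culture partner of both cell types. Both sets of titles also carry the name Akt1, a kinase of growth factor signaling, and the labels do not say what was done to it. Nor do they give the age of the mice, the length of the co-culture, or whether the partners were separated before RNA was taken. Each library can therefore hold RNA of both partners, and in bulk RNA fewer cells of a type and less RNA per cell cannot be told apart. The 3 endothelial and 3 stromal libraries of the same culture series without hematopoietic cells, also titled Akt1 and called alone here, gave the background.

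Marrow endothelium lines arterioles and sinusoids and presents Notch ligands, selectins and secreted factors to the blood cells beside it. Marrow stroma, the mesenchymal cells around the vessels, lays down collagen and proteoglycans and is known as a source of Cxcl12, Kit ligand and pleiotrophin, which keep stem cells in place. Progenitors that turn into neutrophils first make the proteases of the primary granules and later the proteins of the secondary granules, so that the transcripts of a co-culture can show which stages of blood cells are in it.

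The values were the authors' FPKM (fragments mapped per kilobase of transcript, scaled to library size) for 23879 gene symbols. Their totals ran from 1616290 to 1678539 over the 6 libraries, with 12701 to 12959 genes at an FPKM of 1 or more. The sequencing depth behind them is unknown, so the spread between libraries is the only error given. Differences are endothelium minus stroma on log2(FPKM + 1), a scale that understates the change of low genes. They are given ± SE from limma, with Benjamini-Hochberg adjustment and a call at an adjusted p under 0.05, and levels are mean FPKM ± SD (n = 3). In a pair of levels joined by "against", endothelium comes first. The labels do not say that the 3 libraries of a group were separate cultures, so these p-values measure only the spread between libraries, which may be technical. Libraries of a group correlated across the tested genes at 0.9952 to 0.9955 for endothelium and 0.988 to 0.9946 for stroma. Stromal library 2 stood apart. It lay more than 1 (log2) above the mean of the other two in 142 genes where those differed by less than 0.5, against 23 for library 1 and 28 for library 3, and among these were Lcn2 and the chemokines Cxcl1, Cxcl5 and Ccl7, described below.

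Endothelium and stroma stayed far apart in the presence of hematopoietic cells. Of 14017 tested genes, 11934 were called between the co-cultures (85.1%), 6526 of them higher in endothelium (46.6%) and 5408 higher in stroma (38.6%). A difference of at least 2-fold was reached by 2801 genes called higher in endothelium (20.0%) and 2639 called higher in stroma (18.8%), and in 84.6% of genes the libraries of both groups did not overlap. Without stromal library 2 the calls numbered 11956. The median difference over all tested genes was 0.09, and counts of list members below are to be read against these shares. A difference of at least 5 (log2) was called for 256 genes higher in endothelium and 327 higher in stroma.

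Among the genes with the largest differences were several outside the lists. Ctla2a, an inhibitor of cathepsins, read 7521, 7447 and 7306 FPKM in the endothelial libraries and 1.23, 2.42 and 2.39 in the stromal ones (11.29 ± 0.13), and its neighbour Ctla2b 1013, 1038 and 982 in endothelium and 0 in stroma. Ifi27l2a, an interferon-induced gene, stood at 2553 ± 133 against 0.497 ± 0.8603 (10.88 ± 0.38), Apold1, a gene of activated endothelium, at 2595 ± 92.5 against 0.827 ± 0.2401 (10.48 ± 0.08), and Bcl6b, a transcriptional repressor, at 1235 ± 24.8 against 0.36 ± 0.314 (9.86 ± 0.13). Sprr1a, an envelope protein of epithelia, read 1269, 1268 and 1308 in endothelium and 0 in stroma. That all endothelial libraries lay above the stromal ones was a condition for naming these genes and is no finding. On the stromal side, Penk, the precursor of enkephalins, read 1.64, 1.15 and 1.82 FPKM in the endothelial libraries and 10142, 7662 and 11708 in the stromal ones (-11.91 ± 0.14). Mgp, the matrix Gla protein that holds back calcification, read 5009, 3694 and 4675 in stroma and 0 in endothelium, and Abi3bp, a matrix protein, stood at 0.12 ± 0.208 against 2995 ± 107 (-11.40 ± 0.12). Pcolce, an enhancer of procollagen cleavage, stood at 1.25 ± 0.416 against 3477 ± 113 (-10.61 ± 0.10). Thymosin beta 4 (Tmsb4x), an actin-binding peptide, and vimentin (Vim), an intermediate filament protein, were among the 5 most abundant transcripts of endothelium, at 11238 ± 323 against 891 ± 172 (3.67 ± 0.11) and 7538 ± 217 against 4996 ± 746 (0.60 ± 0.09). The call of Vim was lost when all 8 groups of the series shared the estimate of spread.

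**Figure D1:**
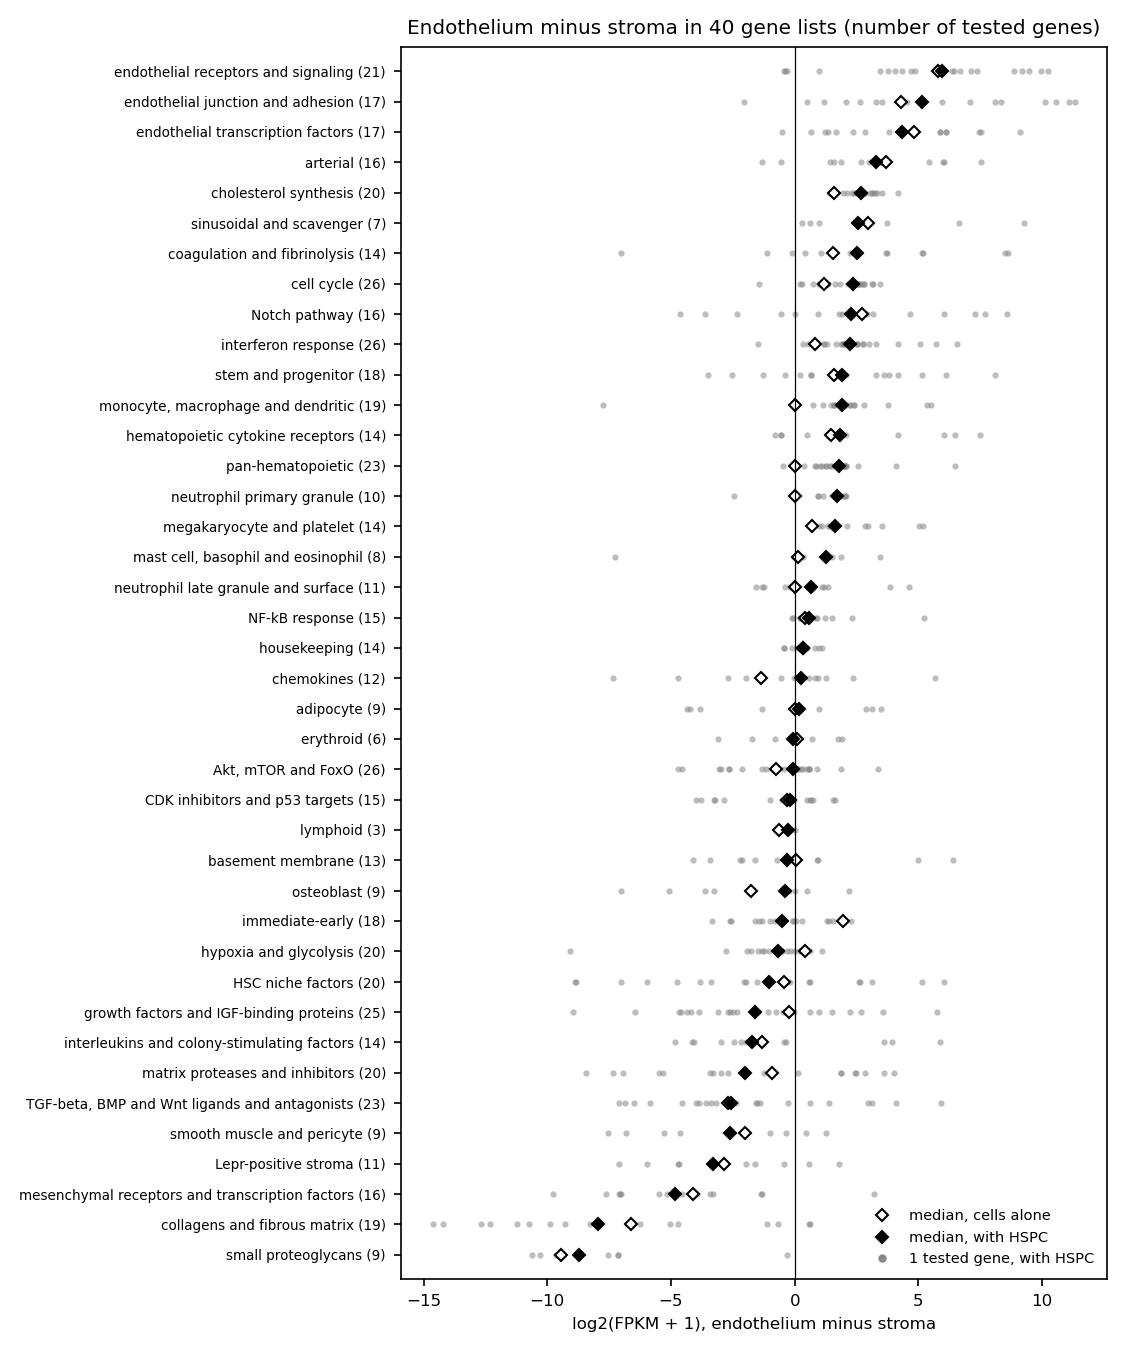
Difference between endothelium and stroma, log2(FPKM + 1), for each tested gene of 40 gene lists in the co-cultures (grey points), with the list median with HSPC (filled diamonds) and for the cells alone (open diamonds). Endothelial lists lie to the right, with a highest median of 5.94, matrix lists to the left, with a lowest of -8.70, and 5 medians change side between the cells alone and the co-cultures: immediate-early, hypoxia, chemokines, basement membrane and erythroid.

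Genes of endothelial junctions and adhesion stood almost wholly on the endothelial side. Of 17 tested, 15 were higher in endothelium and 1 in stroma, with a median difference of 5.16. Pecam1, the junction protein CD31, read 6532, 6568 and 6373 FPKM in the endothelial libraries and 0.92, 1.76 and 2.08 in the stromal ones. VE-cadherin, the product of Cdh5, holds endothelial cells together, and its gene read 3998, 3764 and 3910.5 FPKM in the endothelial libraries and 0, 1.17 and 1.56 in the stromal ones. Every endothelial library lay far above every stromal one (11.32 ± 0.13 and 11.10 ± 0.25). Stroma alone listed both at 0 in all 3 libraries, and whether the trace in the stromal co-cultures came from endothelial or from hematopoietic cells was not tested. Icam2, another adhesion molecule of resting endothelium, stood at 3138 ± 51.5 against 1.3 ± 1.13 (10.58 ± 0.31), and the sialomucin gene Emcn at 1102 ± 53.4 in endothelium and at 0 in the 3 stromal libraries. Selectins that catch rolling leukocytes were found in endothelium only at low levels: Sele read 34.2, 34.5 and 35.2 FPKM and Selp 9.72, 12.8 and 8.99, both listed at 0 in stroma. Vcam1, the integrin ligand, went the other way (51.4 ± 1.62 against 223 ± 72.5, -2.05 ± 0.16), and Icam1 did not pass the test (10.3 ± 2.03 against 7.697 ± 4.56, 0.49 ± 0.27), though it did without stromal library 2 (0.89).

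Receptors and signaling enzymes of endothelium followed, with 18 of 21 tested genes higher in endothelium, 2 in stroma and a median of 5.94. The angiopoietin receptor genes Tie1 and Tek stood at 1582 ± 79.4 and 712 ± 24.95 in endothelium. In stroma, Tie1 read 0, 0.32 and 0.77 and Tek was listed at 0. The VEGF receptor gene Kdr reached 698 ± 17.6 against 0.257 ± 0.445 (9.17 ± 0.17), and Nos3, the endothelial nitric oxide synthase, 1550.1 ± 46.5 against 0.633 ± 0.571 (9.96 ± 0.20). The 2 exceptions were small: Apln, the ligand of the apelin receptor, stood at 436 ± 11.97 in endothelium and 578 ± 105 in stroma (-0.39 ± 0.11), and Nrp2, a co-receptor of VEGF-C, at 249 ± 5.49 and 314 ± 15.4 (-0.33 ± 0.07). Both calls were lost with all 8 groups. Among endothelial transcription factors 16 of 17 were higher in endothelium and 1 in stroma (median 4.33). Sox18 read 702, 636 and 718 FPKM in the endothelial libraries and 0, 0 and 0.99 in the stromal ones, while Sox17 and Sox7, of the same family, stood at 183 ± 4.0002 and 172 ± 6.01 and were listed at 0 in stroma. Hhex, a homeobox gene of early endothelium, reached 86.96 ± 3.27 against 0.327 ± 0.566. Klf4, a factor that flow induces in vessels, was higher in stroma (310.01 ± 14.2 against 453 ± 85.9, -0.53 ± 0.11), a call that was also lost with all 8 groups.

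The Notch pathway was divided between the cell types. Of 16 tested genes 11 were higher in endothelium and 4 in stroma, with a median of 2.27. The ligands Dll1 and Dll4 belonged to endothelium: Dll4 read 86.8, 84.2 and 80.5 FPKM in the endothelial libraries and 0, 0.42 and 0.48 in the stromal ones, and Dll1 stood at 399 ± 12.6 against 0.973 ± 0.225 (7.67 ± 0.08). Of the receptors, Notch4 and Notch1 were endothelial (229 ± 10.2 against 0.497 ± 0.238, and 250.3 ± 10.4 against 8.97 ± 1.21), and Notch2 and Notch3 stromal (9.24 ± 0.37 against 124 ± 6.79, and 0.193 ± 0.00577 against 30.4 ± 13.2). Nrarp, a feedback target of Notch, stood at 455 ± 20.6 in endothelium and 0.223 ± 0.387 in stroma (8.58 ± 0.16), and the target Hey1 at 48.4 ± 2.88 and 4.48 ± 0.549 (3.18 ± 0.10). Rbpj, the DNA-binding partner of all 4 receptors, was higher in stroma (-2.34 ± 0.09). Jag1, a ligand of the other family, was slightly higher in stroma (45.5 ± 1.798 against 67.2 ± 2.67, -0.55 ± 0.04), a call that was lost with all 8 groups.

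Arterial and sinusoidal genes were both on the endothelial side. Of 16 arterial genes 14 were higher in endothelium and 2 in stroma (median 3.28), and of 7 tested sinusoidal and scavenger genes, from 11 listed, 7 were higher in endothelium (median 2.57). In the cells alone 5 of these 7 were called higher in endothelium and 1 in stroma. Among the 7, 1 belongs to the carried transcripts defined below. Gja5, the connexin 40 of arteries, read 82.9, 50.6 and 57.7 in the endothelial libraries, and Sema3g, an arterial guidance signal, 65.8 ± 9.76 against 0.557 ± 0.166 (5.42 ± 0.13). Stab1, the scavenger receptor of sinusoids, stood at 801 ± 17.9 against 0.3 ± 0.0361 (9.27 ± 0.07), and the hyaluronan receptor gene Lyve1 at 98.7 ± 7.96. Both Gja5 and Lyve1 were listed at 0 in all stromal libraries. Unc5b, a netrin receptor of arteries, was an exception with 80.3 ± 4.44 in endothelium and 206 ± 23.2 in stroma (-1.34 ± 0.08). Coagulation genes were split: 11 of 14 tested were higher in endothelium and 2 in stroma (median 2.50). The urokinase gene Plau stood at 2960.1 ± 51.6 against 7.26 ± 1.82 (8.51 ± 0.14), the protein C receptor gene Procr at 1551 ± 42.3 against 43.5 ± 2.45 (5.12 ± 0.07), and von Willebrand factor (Vwf) at 51.1 ± 8.43 against 0.427 ± 0.323 (5.20 ± 0.15). Tissue factor, encoded by F3, starts clotting, and its gene read 123, 121 and 141 in stroma and was listed at 0 in endothelium.

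Fibrous matrix genes lay far on the stromal side. Of 19 collagens and fibrous matrix genes 17 were higher in stroma and 2 in endothelium (median -7.96). Col1a1, a chain of type I collagen, read 0.94, 0.32 and 0.41 FPKM in the endothelial libraries and 26755, 32453 and 29551 in the stromal ones. Its partner chain Col1a2 read 24814, 25216 and 26027 FPKM in stroma and was listed at 0 in all 3 endothelial co-cultures. Type I collagen thus led the stromal libraries by level, ahead of Sparc (21235 ± 615), Fn1 (12509 ± 986) and Bgn (12447 ± 472). Col3a1 stood at 7177 ± 643 in stroma and 0.11 ± 0.191 in endothelium (-12.67 ± 0.31), and periostin (Postn), a matricellular protein, at 5856 ± 259.6 in stroma and 0.18 ± 0.312 in endothelium (-12.31 ± 0.22). Lox, the enzyme that crosslinks collagen, stood at 2.15 ± 0.279 against 7475 ± 435 (-11.21 ± 0.09). Sparc was the most abundant transcript of the endothelial libraries, at 13199 ± 106, and still lower there than in stroma (-0.69 ± 0.06). The order of Sparc depended on scaling: quantile normalization turned it to 0.44, and the call was lost with all 8 groups. Tenascin C (Tnc, 0.62 ± 0.12) and fibulin 2 (Fbln2, 0.56 ± 0.08) were the 2 higher in endothelium, and both calls were lost with all 8 groups.

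Small proteoglycans, which coat collagen fibers, were higher in stroma for 9 of 9 genes (median -8.70). Decorin (Dcn) read 798, 913 and 714 and fibromodulin (Fmod) 1578, 938 and 1358 in stroma, and both were listed at 0 in endothelium. Osteoglycin (Ogn) stood at 0.637 ± 0.592 against 2487 ± 459.7 (-10.63 ± 0.26). Basement membranes, which both cell types build, were shared out: of 13 genes 4 were higher in endothelium and 8 in stroma (median -0.32). The type IV collagen pair was higher in endothelium, with Col4a1 at 1203 ± 41.95 against 619.9 ± 15.8 (0.95 ± 0.04) and Col4a2 at 941 ± 27.7 against 505 ± 19.4 (0.90 ± 0.05), calls that were lost with all 8 groups. Laminin chains were divided, with Lama5 endothelial (577 ± 14.1 against 17.6 ± 1.98, 4.96 ± 0.09) and Lama4 and Lamb1 stromal (-2.23 ± 0.05 and -2.11 ± 0.09). Col18a1, the source of endostatin, was endothelial as well (731 ± 25.6 against 8.18 ± 3.01, 6.38 ± 0.20).

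Mesenchymal receptors and transcription factors marked the stromal libraries, with 15 of 16 tested genes higher in stroma and 1 in endothelium (median -4.84). Pdgfrb, the PDGF receptor of perivascular cells, read 194, 202 and 198, and Prrx1, a homeobox factor of limb and skeletal mesenchyme, 818, 982 and 849. Both were listed at 0 in all endothelial co-cultures, as was Twist1 (133 ± 2.05 in stroma), a factor of mesenchymal identity. Ebf2, a factor of adipogenic and skeletal precursors, was the 1 exception with 8.17 ± 0.633 in endothelium and 0 in stroma. Of 11 tested genes of Lepr-positive stroma, the perivascular cells known for stem cell support, 9 were higher in stroma and 2 in endothelium (median -3.29), while the mature osteoblast list (2 higher in endothelium, 5 in stroma, of 9 tested from 14) and the adipocyte list (5 and 4 of 9 tested from 16) had medians of -0.41 and 0.19. Among those higher in endothelium, Hp of the Lepr list (19.2 against 4.88) and Dlx3 of the osteoblast list (2.34 against 1.42) had means under 1 in both cell types alone. Both therefore belong to the carried transcripts defined below. The calls of Hp and Dlx3 were lost with all 8 groups, and that of Dlx3 also without stromal library 1 (0.35). Spp1, the osteopontin gene, was the high one among the bone genes, at 4576 ± 629.9 in stroma and 33.9 ± 3.24 in endothelium (-7.03 ± 0.09). Among the fat genes the regulator Pparg was endothelial (57.3 ± 0.758 against 5.8 ± 1.01, 3.11 ± 0.11) and Cebpb stromal (9.44 ± 0.751 against 211 ± 12.6, -4.34 ± 0.08). Smooth muscle and pericyte genes were higher in stroma for 7 of 9 tested and in endothelium for 1 (median -2.63). NG2 (Cspg4) read 195, 152 and 216 in stroma and 0 in endothelium, and smooth muscle actin (Acta2) stood at 0.157 ± 0.212 against 134 ± 51.98 (-6.82 ± 0.21).

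Signals known to hold or feed stem cells came from different sides. Of 20 tested niche factors 6 were higher in endothelium and 12 in stroma, with a median of -1.04. Cxcl12, the chemokine that anchors stem cells, read 255, 268 and 268 FPKM in the endothelial libraries and 793, 1781 and 814 in the stromal ones. Stroma was higher in each library (-1.99 ± 0.24, adjusted p = 7.59e-06), and stromal library 2 held more than double the level of the other two, without which the difference was -1.60. Pleiotrophin (Ptn), a growth factor of sinusoidal niches, read 378, 682 and 408 in stroma and 0 in all endothelial co-cultures. Angpt1, the ligand of Tek, stood at 121 ± 22.1 in stroma and 0.967 ± 0.607 in endothelium (-5.99 ± 0.18), opposite to its receptor. In stroma alone these signals stood higher, Cxcl12 at 2696 ± 10.7, Ptn at 2139.8 ± 96.4 and Angpt1 at 483 ± 7.75, and all of them fell with HSPC (-1.36 ± 0.24, -2.18 ± 0.17 and -2.003 ± 0.18). Kitl, the ligand of Kit, was a near match: it read 379.98, 374 and 388 FPKM in the endothelial libraries and 300.5, 227 and 252 in the stromal ones. The groups did not overlap, and endothelium was higher by 0.56 ± 0.08 (adjusted p = 2.99e-05). Tgfb1 was an endothelial signal (502 ± 13.6 against 56.9 ± 5.78, 3.12 ± 0.06). Thrombopoietin (Thpo, 14.4 ± 3.75 against 16.7 ± 5.37) and Igfbp2 (29.96 ± 4.53 against 23.6 ± 18.8) did not pass the test. Their 95% intervals ran from -1.10 to 0.75 and from -0.26 to 1.45, and without stromal library 2 Igfbp2 was called higher in endothelium (1.18).

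Interleukins and colony-stimulating factors were higher in stroma for 10 of 14 tested genes, from 21 listed, and in endothelium for 3 (median -1.73). Il6, which acts on progenitors, read 14.2, 15.02 and 13.9 in endothelium and 0 in stroma, and Tslp, a cytokine of barrier tissues, 58.6, 52.9 and 61.8 and 0. Il15, a lymphocyte growth factor, was endothelial too (26.5 ± 1.23 against 1.63 ± 1.41, 3.59 ± 0.37). Macrophage colony-stimulating factor (Csf1) read 78.4, 75.2 and 79.6 FPKM in the endothelial libraries and 399, 484 and 408 in the stromal ones, and every stromal library lay above the endothelial ones (-2.45 ± 0.08). Lif (-2.99 ± 0.26) and Il11 (-2.17 ± 0.29), ligands of the gp130 family like Il6, were higher in stroma at single digits of FPKM. Of 12 tested chemokines 5 were higher in endothelium and 4 in stroma (median 0.27), against 1 and 9 in the cells alone (-1.38). Of all tested genes 42.0% were called higher in endothelium alone and 41.3% in stroma alone. Ccl2, which draws monocytes, read 4580.1, 4732 and 4679.9 FPKM in the endothelial libraries and 58.6, 165 and 75.1 in the stromal ones, and Ccl7, its neighbour in function, 381, 394 and 409 FPKM in the endothelial libraries and 40.4, 184 and 57.01 in the stromal ones. Endothelium was higher for both (5.68 ± 0.29 and 2.37 ± 0.41), and in both stromal library 2 lay above the other two. Without it Ccl7 differed by 3.01. Cxcl5, a neutrophil attractant, read 96.7, 810.3 and 130 in stroma and 0, 1.35 and 0 in endothelium (-7.36 ± 0.63; -6.41 without stromal library 2). Cxcl1 read 171, 186 and 179 FPKM in the endothelial libraries and 104, 451 and 130.2 in the stromal ones, so the groups overlapped through that library, and it did not pass the test (-0.03 ± 0.40); without that library it was higher in endothelium (0.61).

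Growth factors were mostly stromal, with 17 of 25 higher in stroma and 6 in endothelium (median -1.59). Vegfa, the ligand of Kdr, read 248, 246 and 229 FPKM in the endothelial libraries and 1401, 1775 and 1574 in the stromal ones. Stroma was higher in each library (-2.71 ± 0.08), while the receptor was endothelial. Igf1 (41.7 ± 2.08 against 889.96 ± 168, -4.37 ± 0.10) and Fgf7 (2.18 ± 0.193 against 81.9 ± 17.9, -4.69 ± 0.13), a growth factor for epithelium, were also higher in stroma. Igf2 was endothelial (75.6 ± 8.76 against 0.477 ± 0.491, 5.75 ± 0.22), as was Pdgfb (13.3 ± 1.29 against 0.227 ± 0.393, 3.58 ± 0.20), the ligand whose receptor Pdgfrb stood in stroma. TGF-beta, BMP and Wnt ligands and antagonists were higher in stroma for 17 of 23 tested and in endothelium for 6 (median -2.57). The activin chain Inhbb (209 ± 4.86 against 2.48 ± 0.523, 5.92 ± 0.13) and its binder Fst (4.10 ± 0.10) were endothelial. Grem1, a BMP antagonist (161, 101 and 155 in stroma, 0 in endothelium), Sfrp2, a Wnt antagonist (-6.48 ± 0.37), and Rspo3, which strengthens Wnt signals (2.61 ± 0.513 against 204 ± 8.73, -5.84 ± 0.13), were stromal. Matrix proteases and their inhibitors were divided 8 to 12 of 20 tested (median -1.996): Adamts1 (1131 ± 13.04 against 159 ± 19.3, 2.83 ± 0.07) and Adamts4 (3.62 ± 0.07), which cut proteoglycans, were higher in endothelium, and the collagenase Mmp13 (30.1, 64.2 and 43.8, 0 in endothelium) in stroma. The stromelysin Mmp3 read 213, 1245 and 324 in stroma and 0, 0 and 1.14 in endothelium (-8.42 ± 0.52, and -7.68 without stromal library 2).

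**Figure D2:**
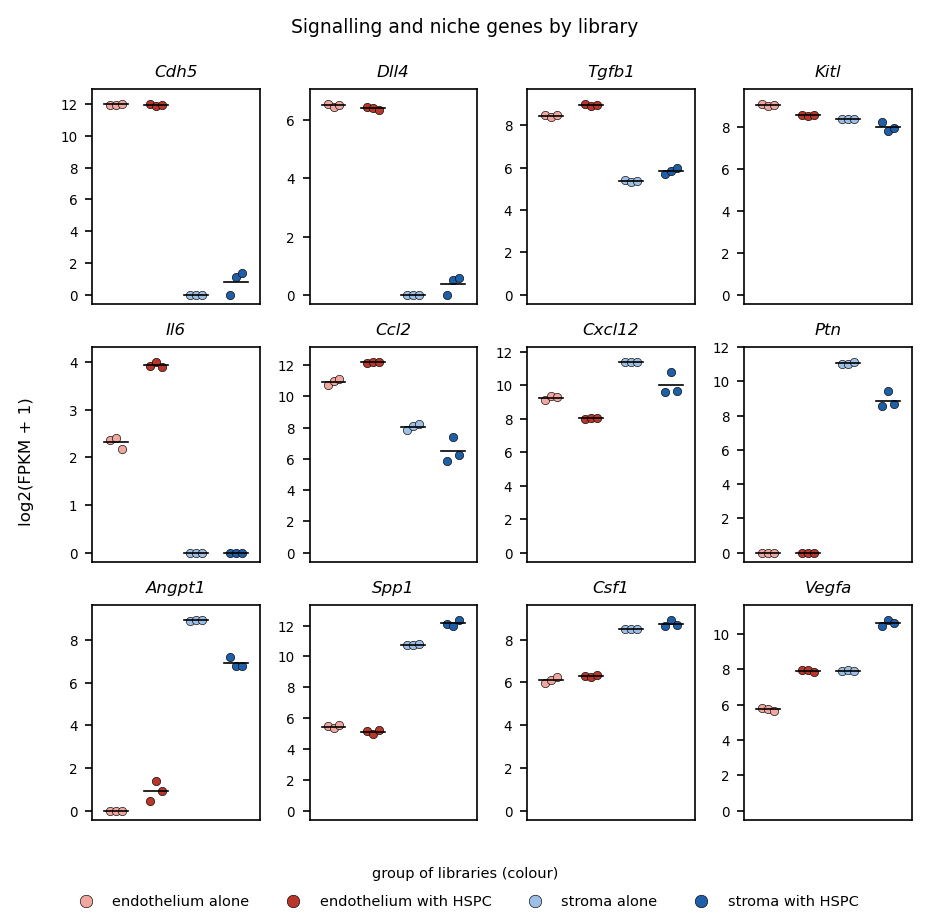
Levels of 12 genes in each library as log2(FPKM + 1), with 1 point per library and a bar at the group mean, for both cell types alone and with HSPC. Dll4, Tgfb1, Il6 and Ccl2 are higher in endothelium, Cxcl12, Ptn, Angpt1, Spp1, Csf1 and Vegfa in stroma, and Kitl differs by only 0.56 between the co-cultures.

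Transcripts of blood cells were found in both kinds of co-culture and were more abundant in those with endothelium. To separate them from the genes of the supporting cells, tested genes with a mean FPKM under 1 in endothelium alone and in stroma alone were set aside as carried transcripts, of which there were 373. By that definition they had to reach an FPKM of 1 almost wholly through the co-cultures, so their rise over the cells alone is no finding and only the comparison between co-cultures is described. Because 3 libraries suffice for the filter, a transcript could also enter through 1 kind of co-culture alone. Its call toward that side then follows in part from the filter. Carried transcripts made up 0.193, 0.221 and 0.182 percent of total FPKM in the 3 endothelial libraries and 0.105, 0.107 and 0.0945 percent in the 3 stromal ones, against at most 0.00618 percent in any library of cells alone. The endothelial share was 1.95 times the stromal one, and an exact permutation test over the 6 libraries (two-sided) gave p = 0.1, the smallest it allows. Most of the difference lay in few transcripts: it was 0.0966 percentage points, and 0.0145 without the 10 highest carried transcripts. Of the 373, 213 were called higher with endothelium (57.1%) and 107 with stroma (28.7%). That balance is one of total FPKM: with the libraries scaled to the pan-hematopoietic list, 118 were called higher with endothelium and 147 with stroma, and scaled to its summed carried members, 83 and 165. Of 121 that rose over the cells alone in both co-cultures, 96 were higher with endothelium, 12 with stroma and 13 were not called. Among all tested genes 10.8% rose in both, but the 121 cannot be read against that share, because the definition favors a rise.

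The 10 hematopoietic lists held 197 genes in the files, of which 121 were tested, 29 were present below the filter and 47 were listed at 0 in all 12 libraries. The carried transcripts contained 47 of the 197: 44 were higher with endothelium, none with stroma, and Camp, Ngp and Lck were not called, with a median of 1.58 against 0.89 for all 373. This balance is in part set by the filter. Rgs18, F2rl2, Muc13, Ms4a2 and Trem2, which were at 0 with stroma, could meet it through the endothelial co-cultures alone. Cd48, Csf3r, Ctss, Dock2, Gp5, Ikzf1, Klf1, Lcp2, Ptprc, Treml1 and Vav1 had a mean under 1 with stroma as well. All of these were called higher with endothelium, and their calls follow in part from the filter. Of the 47, 36 rose over the cells alone in both co-cultures. A further 74 tested members were present in the supporting cells themselves. For the 14 carried genes of the pan-hematopoietic list, which holds genes of many blood lineages but also myeloid ones, such as Tyrobp and Spi1, the summed level was 212 ± 33.1 FPKM with endothelium and 47.3 ± 7.80 with stroma, a ratio of 4.48, and at most 1.17 in any library of cells alone. Over the whole pan-hematopoietic list of 24 genes, 22 of 23 tested were higher with endothelium and 1 with stroma, and the sum ran from 860.1 to 958 FPKM with endothelium and from 317 to 457 with stroma, against 529.95 to 567 in endothelium alone and 229.8 to 267 in stroma alone, which express part of the list themselves.

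Genes of neutrophil precursors were among the highest carried transcripts. Promoters of 3 primary granule genes, of the secondary granule gene Ngp and, for a later paragraph, of 2 hypoxia genes are shown, chosen after the matches were seen, among the transcripts that the results describe. Each line gives the 250 bases before the start in the RefSeq promoter table (build GRCm38.p6), with matches to a short motif on either strand in capitals. In the first 3 the capitals mark GAGGAAGT, a form of the site read by PU.1, the product of Spi1, and in Ngp they mark TTGCNCAA, a form of the site read by C/EBP proteins. The windows lie on the plus strand at chr10:79886062-79886311 for Elane, chr10:79879417-79879666 for Prtn3, chr11:87793534-87793783 for Mpo and chr9:110419558-110419807 for Ngp.
Elane: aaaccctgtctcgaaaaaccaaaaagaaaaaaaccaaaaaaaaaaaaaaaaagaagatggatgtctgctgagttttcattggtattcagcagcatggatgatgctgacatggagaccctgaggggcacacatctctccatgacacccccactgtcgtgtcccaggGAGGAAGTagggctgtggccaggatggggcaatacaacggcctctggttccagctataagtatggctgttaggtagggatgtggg
Prtn3: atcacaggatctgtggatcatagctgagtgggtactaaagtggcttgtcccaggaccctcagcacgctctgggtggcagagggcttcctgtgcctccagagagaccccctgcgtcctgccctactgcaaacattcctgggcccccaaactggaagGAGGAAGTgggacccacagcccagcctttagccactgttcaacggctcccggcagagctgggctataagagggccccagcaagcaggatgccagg
Mpo: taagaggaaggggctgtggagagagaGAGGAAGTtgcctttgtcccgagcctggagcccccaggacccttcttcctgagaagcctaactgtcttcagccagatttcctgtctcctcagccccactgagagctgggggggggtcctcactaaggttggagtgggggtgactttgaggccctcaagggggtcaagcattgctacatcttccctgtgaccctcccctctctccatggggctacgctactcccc
Ngp: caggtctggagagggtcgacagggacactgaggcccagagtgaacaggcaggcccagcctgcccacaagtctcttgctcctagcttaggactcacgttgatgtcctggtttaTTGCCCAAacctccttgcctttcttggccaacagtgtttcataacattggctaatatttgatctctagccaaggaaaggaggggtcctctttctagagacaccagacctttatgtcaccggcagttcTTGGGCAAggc
GAGGAAGT was held by 3 of the 8 primary granule genes that have a promoter there and by 5 of 19 genes of the late granule and surface list, against 2.44 percent of the promoters of all 27025 symbols. The motif TTGCNCAA lay in none of the 8 and in 5 of the 19, against 2.60 percent of all. A match is a description of these letters and not a binding site.

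Elastase (Elane), a protease of the primary granules, read 342, 444 and 364 FPKM in the endothelial libraries and 121, 93.4 and 109.7 in the stromal ones. Proteinase 3 (Prtn3), its neighbour on the chromosome, read 193, 289.7 and 199.7 FPKM in the endothelial libraries and 55.2, 54 and 48.4 in the stromal ones. Myeloperoxidase (Mpo), which makes hypochlorous acid, read 169.7, 236 and 178 FPKM in the endothelial libraries and 62.1, 62.99 and 61 in the stromal ones. All 3 were listed at 0 in every library of cells alone, each endothelial library lay above each stromal one, and the levels stood 3.55, 4.32 and 3.13 times as high with endothelium (1.82 ± 0.11, 2.07 ± 0.13 and 1.62 ± 0.10, adjusted p = 9.35e-09, 1.87e-08 and 2.27e-08). Cathepsin G (Ctsg, 151 ± 30.95 against 40.4 ± 3.77), Ms4a3 (76.7 ± 17.2 against 17.95 ± 2.83), a membrane gene of granulocyte and monocyte progenitors, and Nkg7 (48.5 ± 9.57 against 11.5 ± 2.22) followed, with ratios of 3.75, 4.27 and 4.22. Of the 10 primary granule genes 9 were higher with endothelium (median 1.72), and Calr3, the 1 higher with stroma, stood at 12.3 ± 1.64 there and at 12.7 ± 0.351 in stroma alone.

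Genes of the later granules were mixed. Ngp, a protein of the secondary granules, read 46.9, 18.5 and 22.9 FPKM in the endothelial libraries and 41.5, 32.6 and 21.3 in the stromal ones. Camp, the cathelicidin of the same granules, read 12.3, 7.23 and 9.78 FPKM in the endothelial libraries and 18.2, 14.4 and 8.03 in the stromal ones. Both were listed at 0 in all cells alone, the groups overlapped, and neither passed the test (-0.17 ± 0.29 with a 95% interval from -0.82 to 0.48, and -0.39 ± 0.24 from -0.92 to 0.13). Both were called higher with stroma once 1 library was left out, Ngp without endothelial library 1 (-0.56) and Camp without stromal library 3 (-0.70). S100a8 and S100a9, the chains of calprotectin and, with Elane, the highest carried transcripts, stood at 513 ± 64.99 against 240.1 ± 47.9 and 331 ± 60.99 against 209.96 ± 37.5, ratios of 2.14 and 1.58 (1.10 ± 0.12 and 0.65 ± 0.13). The call of S100a9 was lost with all 8 groups. The other carried members, Csf3r, the receptor of granulocyte colony-stimulating factor, and Chil3, a chitinase-like protein, stood at 2.96 ± 0.21 against 0.543 ± 0.147 and 7.07 ± 3.89 against 2.31 ± 0.359, ratios of 5.45 and 3.07 (1.36 ± 0.10 and 1.19 ± 0.24). Of 11 tested late granule and surface genes, from 22 listed, 6 were higher with endothelium and 3 with stroma (median 0.65). Ltf and Pglyrp1, the largest of the 6, were also expressed by endothelium alone (51.7 ± 3.37 and 22.99 ± 5.13 FPKM). Lcn2, which stroma alone also expressed (18.5 ± 1.64), read 22.1, 12.6 and 13.9 FPKM in the endothelial libraries and 27.1, 181 and 21.7 in the stromal ones, and its call for stroma (-1.55 ± 0.60) was lost without endothelial library 2 or 3, with only the compared groups and with all 8 groups. It was -0.60 without stromal library 2. Each library's mean log2(FPKM + 1) over a list was also set relative to that of the pan-hematopoietic list, on which a value of 0 between the groups would mean an equal gap to it. Endothelium minus stroma on that scale was -1.07 for the tested late granule genes and -0.99 for the 6 carried ones, without overlap between the groups. For the tested primary granule genes it was -0.61 without overlap, and for the 8 carried ones -0.05 with overlap. The gap was wider for the tested erythroid (-2.02), lymphoid (-2.004) and mast cell genes (-1.50), also without overlap, and the 3 carried mast cell genes stood at -0.16 with overlap. On the other side lay the tested cytokine receptor (0.57), megakaryocyte (0.49) and stem and progenitor genes (0.17), without overlap. The 5 carried megakaryocyte genes stood at 0.13 and the 3 carried stem and progenitor genes at 0.34, both with overlap. The tested monocyte genes stood at -0.07 with overlap. Over all tested members these values also hold genes of the supporting cells. In the cells alone, 8 of the 23 tested pan-hematopoietic genes were called higher in endothelium and 1 in stroma. The reference thus differs between the cell types without blood cells. Of the 6 erythroid and 3 lymphoid genes tested, 1 each was carried, so their values do not give shares of these lineages. An exact permutation test over 3 against 3 libraries cannot go below p = 0.1, so no call was made on these values.

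**Figure D3:**
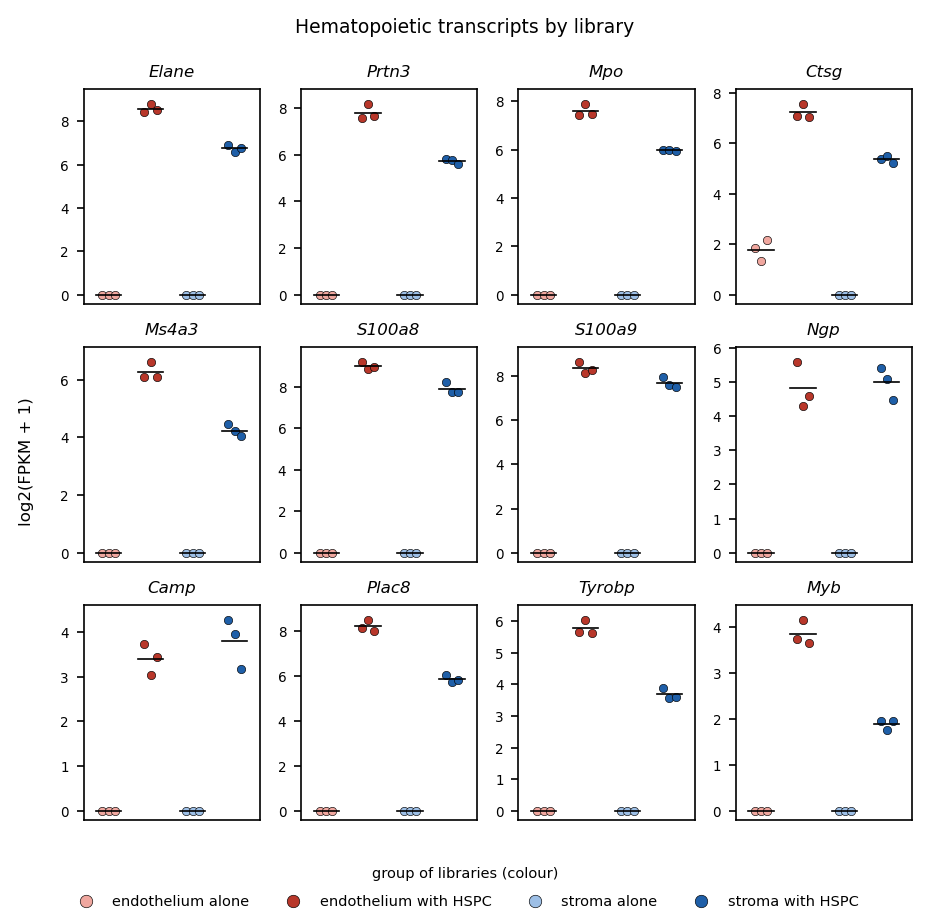
Levels of 12 blood cell transcripts in each library as log2(FPKM + 1), with 1 point per library and a bar at the group mean. Each of the 12 is higher in the endothelial co-cultures in all libraries except Ngp and Camp, where the points of both co-cultures overlap, and only Ctsg is above 0 in any library of cells alone.

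Monocyte, progenitor, platelet and mast cell genes were carried as well. Plac8, a gene of myeloid progenitors and monocytes outside the lists, read 279.7, 358 and 251 FPKM in the endothelial libraries and 64.5, 52.8 and 54.7 in the stromal ones, 5.17 times as high with endothelium (2.34 ± 0.12). Lysozyme (Lyz2) stood at 94.8 ± 16.4 against 30.6 ± 5.15 (1.60 ± 0.17), with 4.54 ± 0.994 and 4.49 ± 0.625 in the cells alone. Ccr2, the receptor for Ccl2, read 9.58, 12.98 and 7.87 FPKM in the endothelial libraries and 1.81, 1.36 and 0.84 in the stromal ones (2.25 ± 0.17), and the Fc receptor gene Fcgr3 stood at 14.6 ± 2.87 against 3.17 ± 0.376 (1.89 ± 0.12). Of 19 tested monocyte, macrophage and dendritic genes, from 30, 17 were higher with endothelium and 1 with stroma (median 1.89). Some of them belong to the supporting cells: the class II genes H2-Aa and H2-Eb1 stood at 69.5 ± 27.1 and 22.01 ± 10.8 in endothelium alone, and Gpnmb, the 1 higher with stroma, at 613 ± 4.26 in stroma alone. Myb, the transcription factor of immature blood cells, read 12.3, 16.8 and 11.5 FPKM in the endothelial libraries and 2.87, 2.36 and 2.88 in the stromal ones (1.96 ± 0.12) and was listed at 0 in all cells alone. Other stem cell genes are shared with endothelium. Of 18 tested stem and progenitor genes 14 were higher with endothelium and 4 with stroma (median 1.90), but Fgd5, Tal1, Procr, Ly6a and Cd34 stood between 58.2 and 2238 FPKM in endothelium alone, and Hoxa9 and Meis1, both higher with stroma, at 122 and 25.1 in stroma alone. Kit, the receptor of stem cells for Kitl, read 23.8, 19.4 and 18.9 FPKM in the endothelial libraries and 0, 0.31 and 0.35 in the stromal ones against 11.9, 5.29 and 8.73 in endothelium alone.

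Platelet and megakaryocyte genes were higher with endothelium for 14 of 14 tested (median 1.65), among them Pf4 (34.1 ± 7.103 against 3.86 ± 0.934) and the transcription factor Nfe2 (10.3 ± 3.98 against 2.58 ± 0.372), while Vwf and Itgb3 were endothelial already alone. In the cells alone 7 of the 14 were called higher in endothelium and 1 in stroma (median 0.70). Only 5 were carried, and of these Rgs18 and F2rl2 were at 0 with stroma. Gp5 (0.55) and Treml1 (0.48) had stromal means under the FPKM of 1 that the filter asks for. The calls of these carried genes thus follow in part from the filter, with Nfe2 as the exception. Mast cell and basophil genes were higher with endothelium for 6 of 8 tested from 21 and with stroma for 1 (median 1.25). Their differences ran from -7.25 to 3.45. The summed list stood at 102 FPKM with endothelium and 192 with stroma, against 23.4 in endothelium alone and 203 in stroma alone. The basophil protease Mcpt8 stood at 31.2 ± 5.86 against 10.2 ± 0.414 (1.51 ± 0.30, a call lost with a pseudocount of 0.1 and with all 8 groups). The mast cell protease Cpa3 stood at 9.06 ± 1.57 against 1.76 ± 0.598 (1.88 ± 0.16). Of these 8, 3 were carried, and in the cells alone 4 were called higher in endothelium and 1 in stroma (median 0.12). Erythroid genes (6 tested of 21, 3 in each direction) and lymphoid genes (3 tested of 23, none called) were close to the filter or owned by the supporting cells, and 14 of the lymphoid genes were listed at 0 in all 12 libraries. Receptors for hematopoietic cytokines were higher with endothelium for 11 of 14 tested and with stroma for 3 (median 1.82), but Csf2rb stood at 149.6 ± 9.25 and Il2rg at 200.3 ± 14.004 in endothelium alone.

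**Figure D4:**
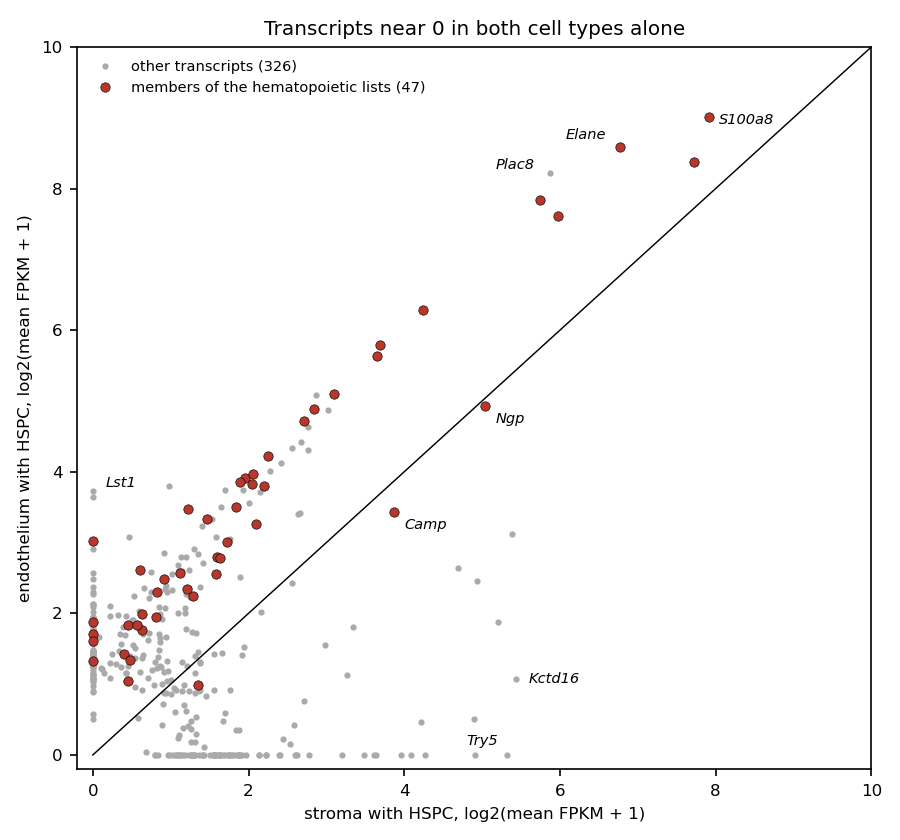
Mean level of the 373 carried transcripts in the stromal (x axis) and endothelial (y axis) co-cultures, both log2(mean FPKM + 1), with equal levels on the line. Red points are the 47 members of the hematopoietic lists, of which 44 were called higher with endothelium, and grey points on the x axis, such as Try5, are transcripts found with stroma only.

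The 107 carried transcripts that were higher with stroma held no member of the hematopoietic lists. Kctd16, a subunit of GABA-B receptor complexes, read 0.88, 1.19 and 1.22 FPKM in the endothelial libraries and 35.3, 48.5 and 43.6 in the stromal ones, and Gsg1l, a subunit of glutamate receptor complexes, 0.6, 0.67 and 0 FPKM in the endothelial libraries and 28.9, 21.2 and 36.2 in the stromal ones. Cacna1h, a T-type calcium channel, stood at 0.383 ± 0.0351 against 17.6 ± 7.63 (-3.67 ± 0.23). Try5 (34.9, 16.04 and 35.9), Fibcd1 (20.6, 13.9 and 20.4), Mmp10 (2.97, 32.8 and 8.09), a stromelysin that was highest in stromal library 2, and Cox4i2 (8.79, 14.02 and 11.4), a respiratory chain subunit that low oxygen induces, were listed at 0 in all endothelial co-cultures. Among the largest on the endothelial side were Lst1 (10.97, 15.4 and 10.4), Arg1 (12.2, 12.2 and 10.1), the arginase of macrophages, and Rgs18 (4.85, 10.5 and 6.04), a platelet regulator, all listed at 0 with stroma. In the cells alone Lst1 and Rgs18 were at 0 and Arg1 was above it in 1 library of endothelium. Whether a carried transcript came from the added cells or was induced in the supporting cells was not tested.

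States that both cell types can enter also differed. Proliferation genes were higher in the endothelial co-cultures for 23 of 26 tested and in the stromal ones for 1 (median 2.35), against a median of 1.19 for the cells alone. Compared with the cells alone they were lower for 16 of 26 in endothelium and 23 in stroma, and higher for 0 and 1. Over all genes HSPC against alone was called for 6813 in endothelium (48.6%; 28.3% higher, 20.3% lower) and 8551 in stroma (61.0%; 25.6% higher, 35.4% lower), and with all 8 groups in the fit for 1852 and 3591. Mki67, the marker of cycling cells, read 45.9, 53.8 and 51.1 FPKM in the endothelial libraries and 4.45, 8.24 and 6.66 in the stromal ones, and the topoisomerase gene Top2a 115, 129.7 and 125 FPKM in the endothelial libraries and 9.54, 16.02 and 14.2 in the stromal ones. The groups did not overlap (2.81 ± 0.16 and 3.15 ± 0.15), and the part of the blood cells in these transcripts was not tested. E2f1, a factor of S phase entry, was the 1 higher in stroma (36.1 ± 2.304 against 99.1 ± 7.21, -1.43 ± 0.07). CDK inhibitors and p53 targets were higher in stroma for 8 of 15 and in endothelium for 6 (median -0.18): Cdkn2b (21.8 ± 1.93 against 315 ± 29.5, -3.79 ± 0.08) and the stress gene Gadd45a (47.3 ± 4.84 against 787 ± 176, -4.01 ± 0.15) led in stroma, and Cdkn2a (89.9 ± 0.2802 against 28.8 ± 3.21, 1.62 ± 0.08) in endothelium. Akt1 itself read 1866, 1809.5 and 1765 FPKM in the endothelial libraries and 520.4, 462 and 497 in the stromal ones (1.88 ± 0.05), while Akt2 (23.2 ± 0.362 against 149.6 ± 4.02, -2.64 ± 0.05) was higher in stroma. Of 26 Akt, mTOR and FoxO genes 9 were higher in endothelium and 13 in stroma (median -0.08).

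Interferon response genes were higher in endothelium for 24 of 26 tested and in stroma for 1 (median 2.24). Rsad2, an antiviral enzyme, read 82.8, 101 and 97.2 in endothelium and 0 in stroma, Bst2, the tetherin gene, 1754, 1638 and 1819 FPKM in the endothelial libraries and 98.5, 111 and 80.3 in the stromal ones, and the transcription factor Irf7 51.4, 57.4 and 65.4 FPKM in the endothelial libraries and 4.67, 7.47 and 3.64 in the stromal ones. Endothelium was higher in each library. With HSPC, 22 of the 26 fell and 1 rose in stroma, and 2 fell and 6 rose in endothelium. NF-kB response genes were higher in endothelium for 12 of 15 and in stroma for none (median 0.57), led by Traf1 (34.9, 39.05 and 34.5, 0 in stroma) and the inhibitor Nfkbia (479.8 ± 15.6 against 97.7 ± 25.1, 2.31 ± 0.13). Cholesterol synthesis genes lay on one side: 20 of 20 tested genes were higher in endothelium (median 2.67), from Srebf2, the transcription factor of the sterol response (386 ± 6.295 against 142 ± 5.27, 1.43 ± 0.03), to Stard4, a sterol carrier (408 ± 13.1 against 21.9 ± 1.34, 4.16 ± 0.06). Idi1, an isomerase of the pathway, read 402, 434 and 406 FPKM in the endothelial libraries and 43.4, 29.1 and 35.4 in the stromal ones. Every endothelial library lay above the stromal ones (3.51 ± 0.13). Against the cells alone, 19 of the 20 rose in endothelium and 1 fell, while in stroma 15 fell and none rose.

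Low oxygen and glycolysis genes were higher in stroma for 15 of 20 and in endothelium for 4 (median -0.66). The promoters of Car9 at chr4:43506776-43507025 (plus strand) and Bnip3 at chr7:138909507-138909756 (minus strand), again 250 bases of build GRCm38.p6, carry ACGTG, the core that hypoxia-inducible factors read, in capitals on either strand.
Car9: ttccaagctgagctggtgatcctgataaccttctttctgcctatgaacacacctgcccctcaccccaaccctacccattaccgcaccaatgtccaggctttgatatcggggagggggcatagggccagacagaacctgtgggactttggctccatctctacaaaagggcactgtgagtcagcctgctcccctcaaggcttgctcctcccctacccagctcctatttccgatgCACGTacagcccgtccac
Bnip3: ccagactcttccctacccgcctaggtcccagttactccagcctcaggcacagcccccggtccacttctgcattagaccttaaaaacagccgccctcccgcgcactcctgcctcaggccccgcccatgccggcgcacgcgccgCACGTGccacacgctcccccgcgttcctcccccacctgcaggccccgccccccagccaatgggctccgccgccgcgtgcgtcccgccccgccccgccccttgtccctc
In Bnip3 the 2 matches lie on opposite strands and overlap. The core was found in 11 of the 19 genes of the list with a promoter in the table, against 16.6 percent of all promoters. Car9, a carbonic anhydrase of hypoxic cells, read 4.57, 5.58 and 6.16 FPKM in the endothelial libraries and 3447, 3372 and 3619 in the stromal ones (-9.09 ± 0.08), and Bnip3, a gene of mitochondrial turnover, 574, 599 and 516 FPKM in the endothelial libraries and 1943, 2329 and 2183 in the stromal ones (-1.93 ± 0.10). Stroma was higher in each library. P4ha1, a prolyl hydroxylase of collagen (286 ± 5.901 against 1965 ± 227, -2.77 ± 0.07), and Pdk1 (144 ± 5.43 against 493 ± 17.8, -1.76 ± 0.05), which turns pyruvate away from mitochondria, followed. Egln3, the oxygen sensor (1528 ± 61.6 against 712 ± 123, 1.12 ± 0.11), and the lactate exporter gene Slc16a3 (0.64 ± 0.16) were higher in endothelium, the latter call lost with all 8 groups. Against the cells alone, where Car9 stood at 4.21 ± 0.4002 against 228 ± 5.22 and Bnip3 at 54.5 ± 7.62 against 136 ± 7.11, 20 of the 20 were called higher with HSPC in endothelium and 20 in stroma.

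The immediate-early genes, which answer to stimuli within minutes, turned their order between the cell types, as the medians of hypoxia and 3 other lists did. In the co-cultures 10 of 18 were higher in stroma and 5 in endothelium (median -0.53), and in the cells alone 16 were higher in endothelium and 1 in stroma (median 1.96). Among all genes, 11678 were called between the cell types alone (83.3%; 42.0% higher in endothelium, 41.3% in stroma). Fos read 136, 94.3 and 144 FPKM in the endothelial libraries and 786, 674 and 806 in the stromal ones, and alone 1009.7, 1152 and 1060.1 in endothelium and 58.98, 54.5 and 60.3 in stroma. Fosb read 21.4, 16.4 and 29.8 FPKM in the endothelial libraries and 261, 199 and 241 in the stromal ones, and alone 392, 473 and 383 in endothelium and 7.89, 8.61 and 9.32 in stroma. Egr1 read 307, 256 and 346 FPKM in the endothelial libraries and 886, 839.8 and 1024 in the stromal ones, and alone 818, 904 and 846 in endothelium and 226, 231 and 235 in stroma. For these 3 transcription factors the groups did not overlap in either setting, and the side that was higher changed. The test of that change, the difference with HSPC minus the difference alone, gave -6.80 ± 0.19 for Fos, -8.79 ± 0.25 for Fosb and -3.49 ± 0.14 for Egr1 (adjusted p = 1.83e-09, 1.89e-09 and 1.29e-08), and over the list 17 of 18 genes had a called change toward stroma and 1 toward endothelium. With HSPC, 10 of the 18 fell and 2 rose in endothelium, and 2 fell and 15 rose in stroma. Over all genes the change was called for 7996 (57.0%), toward endothelium for 36.0% and toward stroma for 21.1%, and with all 8 groups for 2276. Btg2 (673 ± 48.6 against 139 ± 13.2, 2.27 ± 0.07) and Dusp1 (470.3 ± 24.4 against 192 ± 7.44, 1.28 ± 0.10), which restrain growth and kinase signals, stayed higher in endothelium.

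**Figure D5:**
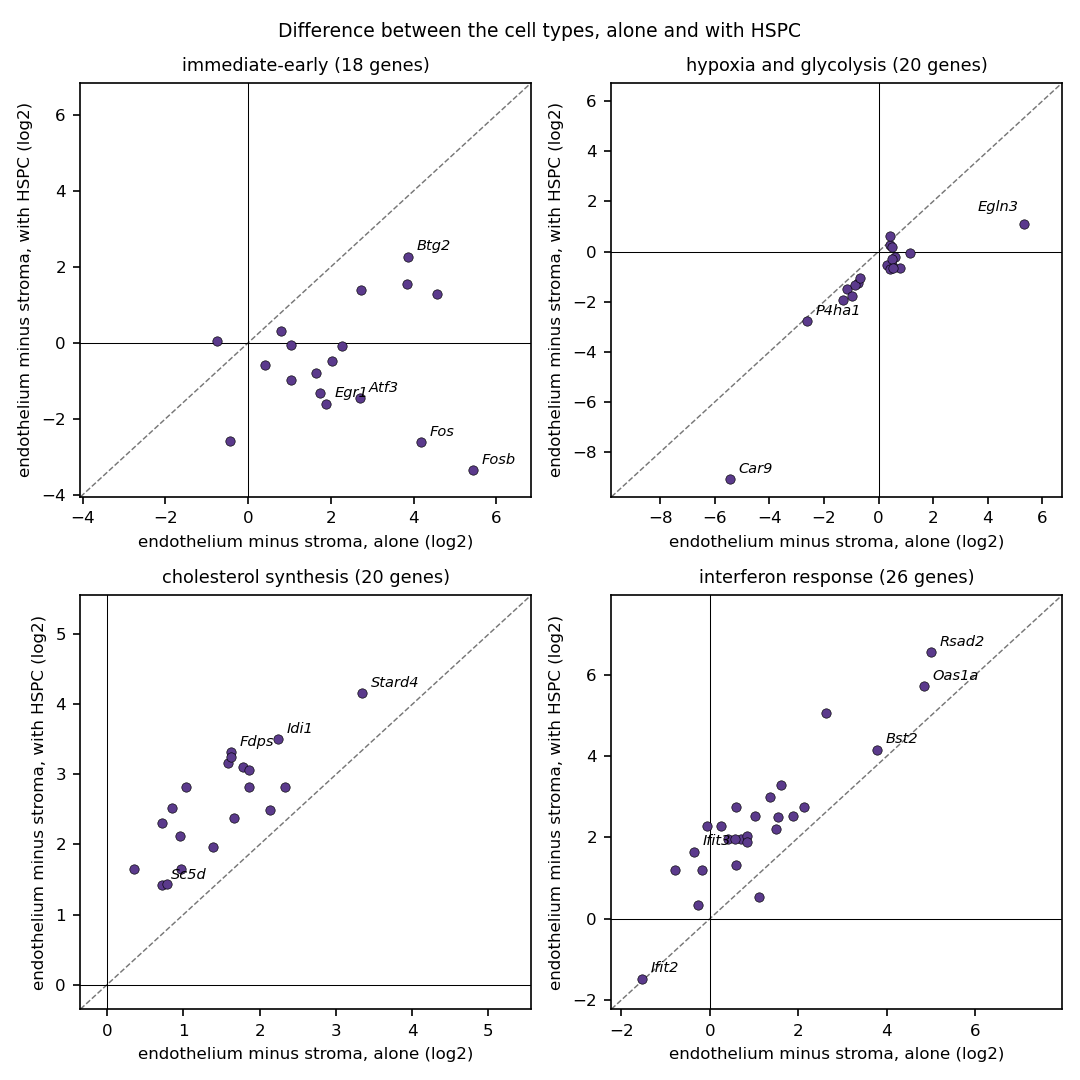
Difference between endothelium and stroma, log2(FPKM + 1), in the cells alone (x axis) and in the co-cultures (y axis) for the tested genes of 4 lists, with equal differences on the dashed line. Immediate-early genes such as Fos and Fosb lie to the right of 0 and below it, hypoxia genes lie below the line except Slc16a3, and cholesterol genes, all above 0 on both axes, lie above it.

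Of the 20 cholesterol genes 20 changed toward endothelium and of the 20 hypoxia genes 15 toward stroma, with none the other way in either list. Car9 changed by -3.63 ± 0.12 and Egln3 by -4.21 ± 0.16. Ndufa4l2, a hypoxia gene outside the list, read 2125, 2027 and 2271 in the stromal co-cultures and 0 in the endothelial ones, and 72.9, 71.7 and 65.1 in stroma alone. Nppc, the gene of the natriuretic peptide CNP, had the largest change toward endothelium by the naming rule. It read 222, 224 and 225 in the endothelial and 0 in the stromal co-cultures, and alone 335, 341 and 321 in endothelium and 28.03, 35.5 and 28.1 in stroma. Nppc was thus lower with HSPC in both cell types, and the larger fall on the log2 scale was in stroma. Sprr2b (376 ± 44.3 with HSPC, 20.8 ± 2.496 alone), a gene of the epithelial envelope, and Psg22 (98.1 ± 7.97 and 5.94 ± 1.85), of the pregnancy-specific glycoproteins, rose in endothelium and were at 0 in stroma. The metallothionein gene Mt1 remained stromal (54.3 ± 6.02 against 3421 ± 766, -5.94 ± 0.12) but was at 0 in endothelium alone. Toward stroma changed Tgfbi, a matrix protein that TGF-beta induces (5.93 ± 1.37 against 402 ± 36.3 with HSPC, 97.4 ± 3.75 against 124 ± 2.79 alone, a change of -5.53 ± 0.17). The imprinted RNA H19 read 214, 385 and 328 in the stromal co-cultures and 0.49, 0 and 0 in the endothelial ones (-8.04 ± 0.23), and alone 2.28, 2.49 and 2.37 in stroma and 1.89, 0.89 and 1.17 in endothelium. An order that turned, with the cell types called on opposite sides alone and with HSPC and the change itself called, was found for 669 genes (4.77%), 267 turning toward stroma (1.90%) and 402 toward endothelium (2.87%).

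Genes used as internal standards differed by -0.45 to 1.10. Of 14 tested 10 were higher in endothelium, 1 of them at least 2-fold, and 2 in stroma, with a median of 0.35. Eef1a1 stood at 9144 ± 348 against 8468 ± 78.9 and did not pass the test. Hprt (0.44 ± 0.06) and Tbp (0.19 ± 0.05) were slightly higher in endothelium, calls that were lost with all 8 groups and, for Tbp, by both scalings. With trimmed-mean scaling the median difference over all genes moved from 0.09 to 0.00463 and the share of calls that were higher in endothelium from 54.7% to 50.3%. All list medians kept their sign under trimmed-mean and quantile scaling.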

How the data were processed

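Polyadenylated RNA was sequenced as paired ends, per the labels' protocols, from Trizol extracts. The deposited values are FPKM per gene symbol, made by the authors with TopHat, Cufflinks and the mouse build mm9, per the submitters' processing notes, with versions and settings not given in the sources used here. FPKM keeps no depth and no read counts, so count models were not used. FPKM is a share of each library, so a rise in one set of abundant transcripts lowers the rest.

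Genes that reached an FPKM of 1 in 3 or more of 12 libraries (both cell types, alone and with HSPC) were fitted as log2(FPKM + 1) in limma 3.58.1 (R 4.3.3) with an intensity trend and Benjamini-Hochberg adjustment over all tested genes. The 4 groups shared 1 estimate of spread. The fit was tested on simulated data. The libraries of the other groups entered only the alternative with all 8 groups. The members, the 40 gene lists (taken in part from an earlier analysis of these files) and the tests were chosen with earlier results of these data known.

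Named were Akt1, the 12 largest called differences in each direction whose groups do not overlap and whose higher group has a mean FPKM of 5 or more, the same 8 of the carried transcripts, the 8 largest changes in each direction, up to 4 called members of each list in each direction, the 5 most abundant transcripts of each co-culture, and any list member that describes its list. Plac8 was chosen among the carried transcripts by the same rule. Clone names, small RNAs and histone genes were left out of the ranking, and 4 list entries had no symbol in the files. Some genes that the rule picked are not reported here.

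Promoters came from the RefSeq table of build GRCm38.p6, and no coordinate of the authors' build is given. The 14 motifs searched on both strands, in 6 lists, were GAGGAAGT and its part GAGGAA, which hold the shorter motif GGAA, as does CAGGAAAT. Further ones were TTGCNCAA with TTGCGCAA as one form of it and TTNNGNAA as a looser one, the core ACGTG of hypoxia-inducible factors, the sterol motif TCACNCCAC, the Runx motif TTGTGGT with its part TGTGGT, a spaced pattern of CC and GG with 6 free bases between them (wider than the CArG box), and the CRE-like motifs TGACGTCA as well as TGACGCAA. The motifs and promoters shown were chosen after the matches were seen.

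Alternatives changed the pseudocount, the filter, the scaling (trimmed-mean and quantile), the libraries in the fit, the weights, a replicate term, the size of change tested, each library left out in turn and the definition of a carried transcript. Scaling to summed carried genes and the other forms of the lineage comparison were chosen after seeing the data.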

Additional observations from a re-analysis of the deposited data

Results flagged for a closer look

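The following members of the gene lists lay on opposite sides between endothelium and stroma alone and with HSPC, with both differences and the change between them called by limma with Benjamini-Hochberg adjustment and each difference at least 1 (log2) in size. Values are the change on log2(FPKM + 1). Toward stroma changed the immediate-early transcription factors Fosb (-8.79), Fos (-6.80), Atf3 (-4.17), Egr1 (-3.49) and Jun (-3.06). Jun, the partner of Fos, stood at 1.74 alone and -1.32 with HSPC. The matrix genes Col15a1 (-4.98) and Eln (-4.59), the elastin gene, did the same, Eln from 3.46 to -1.13. So did Ctgf (-3.61), a matricellular growth factor, and Unc5b (-3.13), the netrin receptor. Toward endothelium changed the chemokines Ccl7 (3.99), Ppbp (3.66), which platelets also carry, and Cxcl10 (2.41), the coreceptor of lipopolysaccharide Cd14 (3.53), and Bmp2 (2.41). Ppbp stood at -2.25 alone and 1.41 with HSPC. Without the limit on size, and over all genes, 669 turned in this way.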

How the results depend on the processing

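Every count of calls in the comparisons kept within 1.5 times its value under another pseudocount, another filter, either scaling, only the compared groups, weights per group and the replicate term, except among carried transcripts. When a change of at least 2-fold was tested, 4508 genes were called between the co-cultures (2302 higher in endothelium, 2206 in stroma), 703 for the change between cell type differences, 522 and 757 for HSPC against alone in endothelium and stroma, 4204 between the cell types alone, and 119 and 58 carried transcripts higher with endothelium and stroma. With all 8 groups in the fit the change was called for 2276 genes and HSPC against alone for 1852 in endothelium and 3591 in stroma. Carried transcripts higher with endothelium and stroma numbered 466 and 260 with no filter and 50 and 16 with a filter at FPKM 5. Defined by a mean under 2 they numbered 392 and 282, and by 0 in all libraries alone 124 and 31. With a mean under 0.5, 54 were higher with stroma. Scaled to the pan-hematopoietic list 118 were higher with endothelium and 147 with stroma, and scaled to the summed carried pan-hematopoietic genes 83 were higher with endothelium and 165 with stroma. These last values are relative to the blood cell genes and follow from that scaling.

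Lineage lists relative to the pan-hematopoietic list moved with the members and the summary. In the order carried members only, pseudocount 0.1 and summed FPKM, they were 0.34, 0.58 and 0.57 for stem and progenitor genes, -0.0473, -1.01 and -0.30 for primary granule genes, 0.0384, 0.10 and 0.0774 for monocyte genes and -0.16, -1.85 and -0.22 for mast cell genes. Megakaryocyte genes gave 0.13 and 1.34 under the first 2, and lymphoid genes -2.79 and cytokine receptors 1.10 with the pseudocount. The cause was not tested.

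Leaving out each library in turn gave 11584 to 11956 calls between the co-cultures (6266 to 6523 higher in endothelium, 5230 to 5444 in stroma), 7350 to 8448 for the change, 5781 to 7631 and 7814 to 8681 for HSPC against alone in endothelium and stroma, 11349 to 11972 between the cells alone, 203 to 215 and 94 to 109 carried transcripts, and a difference in share of 0.0854 to 0.105 percentage points, which was 0.0145 without the 10 highest carried transcripts. With the replicate number as a block, 11875 genes were called between the co-cultures (6507 and 5368), 7855 for the change, 6725 and 8419 for HSPC against alone, 11654 between the cells alone, and 213 and 106 carried transcripts. The block changed the call of none of the 302 named genes. Between the co-cultures, deviations from the group means correlated at -0.0383 to 0.0182 for samples of the same number, with 1 of 3 correlating best with its own number, so the numbers were not taken to pair the samples. Of the named genes, Sparc was reversed by quantile normalization (0.44). With no read counts, the depth of low genes could not be weighed.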

Other observations

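Several genes outside the lists, chosen by rank, add to the picture of the co-cultures. Among carried transcripts, Ms4a6c, a membrane gene of monocytes, stood at 12.9 ± 2.73 FPKM with endothelium and 0.97 ± 0.996 with stroma (2.93 ± 0.30). Cst7, the cystatin F of immune cells, stood at 32.9 ± 2.39 and 6.28 ± 1.397 (2.23 ± 0.12). On the other side, Lingo3 read 7.03, 15.8 and 10.7 with stroma and 0 with endothelium. Of genes whose cell type difference changed, Klk1, a kallikrein, was endothelial and lower with HSPC (2.22 ± 0.992, against 97.2 ± 23.8 alone). Chst2, a sulfotransferase that makes selectin ligands, stood at 179.6 ± 0.678 with HSPC and 63.2 ± 6.58 alone in endothelium, and at 64.8 ± 16.6 and 357 ± 15.4 in stroma, a change of 3.97 ± 0.19 toward endothelium. Ccl9, a myeloid chemokine, was at 0 in endothelium alone and read 13.1, 19.03 and 10.8 there with HSPC.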
